A study of Mus musculus with 6 samples.

Results

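Most internal exons of a vertebrate gene are short, and an exon of more than 300 nt is long for its splice sites to be recognised across it as a pair. The set described here holds every exon event of the mouse heart splicing table whose own coordinates span more than 300 nt: 3904 of 107748 exon events, or of 265079 splicing events of all kinds. These exons belonged to 2893 genes. Of these, 2207 had 1 such exon and 195 had 3 or more. Lengths ran from 301 to 17106 nt, with a median of 494 nt and quartiles of 362 and 772 nt. Length alone decided which exon events were members, and no inclusion value was used for it. The exons were nevertheless chosen with earlier results of these data known. In control hearts 3449 of the 3904 exons were over 90% included, where a rise of 10 points is not possible.

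Control hearts (n = 3) came from mice homozygous for a floxed Srsf3 (Srsf3Fl/Fl), and knockout hearts (n = 3) from mice with the same floxed alleles plus the βMHC-Cre transgene (Srsf3Fl/Fl-βMHC-Cre, cKO). Cre was driven by the Myh7 promoter in cardiomyocytes from the time before birth, so the design leaves Srsf3 intact in the other cells of the heart, which was not measured here. All 6 animals shared the floxed alleles, no animals with Cre alone were analysed here, and the labels give no ages. Polyadenylated RNA of whole hearts was sequenced. For each event the authors deposited 1 inclusion level per group, so a value per heart, a standard deviation and a test over hearts could not be given.

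SRSF3 is the smallest member of the SR proteins, which bind short sequences inside exons and recruit the splicing machinery to the flanking splice sites. A long exon has its 3′ and 5′ splice sites far apart, and such exons are known to lean on bound proteins of this kind to be recognised as one unit. In striated muscle many long exons lie in giant sarcomere genes such as titin, and elsewhere they often encode whole activation or zinc finger domains.

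Coding sequence from the start of 7 exons with large falls is shown first, because these are the stretches next to the 3′ splice site in the exons the results turn on. Each line gives the first 100 bases of the exon, 5′ to 3′ on the transcribed strand, from GENCODE M21 on GRCm38. Capitals mark CATC, read as CAUC in RNA, which is the core bound by the RNA recognition motif of human SRSF3. The windows are chr6:86956259-86956358 (plus strand) for exon 11 of Aak1, chr7:128539973-128540072 (plus) for exon 2 of Bag3, and chr9:108533587-108533686 (plus) for exon 4 of Qrich1. They are chr12:73281557-73281656 (minus) for exon 4 of Trmt5, chr14:100023069-100023168 (minus) for exon 4 of Klf12, chr5:72974531-72974630 (plus) for exon 8 of Slain2 and chr16:90250338-90250437 (minus) for exon 10 of Scaf4.
Aak1, 314 nt: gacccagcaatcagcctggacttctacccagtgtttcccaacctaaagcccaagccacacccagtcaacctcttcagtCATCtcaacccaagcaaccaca
Bag3, 339 nt: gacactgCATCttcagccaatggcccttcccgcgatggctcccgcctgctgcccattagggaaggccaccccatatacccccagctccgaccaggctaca
Qrich1, 1032 nt: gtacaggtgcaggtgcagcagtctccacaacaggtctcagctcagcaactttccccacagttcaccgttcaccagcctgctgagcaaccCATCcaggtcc
Trmt5, 652 nt: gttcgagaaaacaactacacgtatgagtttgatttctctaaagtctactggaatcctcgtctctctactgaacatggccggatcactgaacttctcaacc
Klf12, 547 nt: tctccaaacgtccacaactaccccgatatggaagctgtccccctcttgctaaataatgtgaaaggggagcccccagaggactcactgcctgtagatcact
Slain2, 316 nt: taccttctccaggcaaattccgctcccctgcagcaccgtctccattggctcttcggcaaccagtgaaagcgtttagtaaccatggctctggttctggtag
Scaf4, 381 nt: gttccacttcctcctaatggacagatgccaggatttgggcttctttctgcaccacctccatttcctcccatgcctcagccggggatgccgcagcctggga

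Long exons that differed between the groups were almost all included less in cKO hearts. The inclusion level (PSI) is the percentage of transcripts that hold the exon, and an exon was called where the authors' minimum change, the difference exceeded with a probability of 0.95, was at least 10 points. Of the 3904 long exons, 48 were called lower in cKO (1.23%) and 2 higher (0.0512%), against 0.217% lower and 0.077% higher over all exon events. Among the 103844 exons of 300 nt or shorter, 186 were called lower (0.179%) and 81 higher (0.078%). The larger share among long exons lay in the lower calls, while the higher calls were as rare as among short exons. In control, 3449 of the long and 92561 of the shorter exons were over 90%. None of these can rise by 10 points, which limits the higher calls in both sets.

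**Figure D1:**
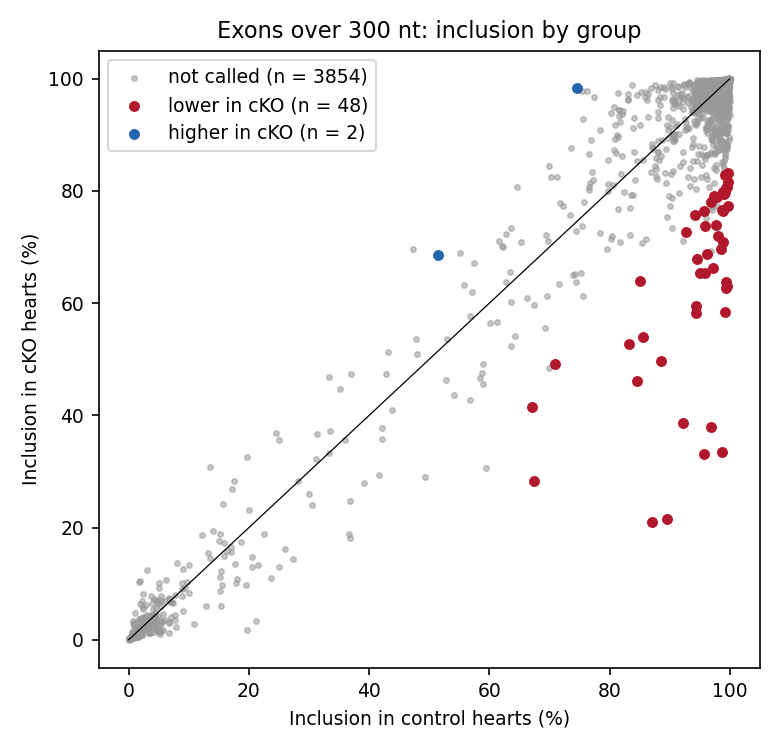
Inclusion of each of the 3904 exons over 300 nt in control hearts (horizontal axis, %) and in cKO hearts (vertical axis, %), with 1 value per group. The 48 exons called lower in cKO (red) lie below the diagonal line of equal inclusion, most at control levels over 90%, and the 2 called higher (blue) lie above it.

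Most exons called lower had high inclusion in control hearts, as most long exons did. Their median inclusion was 97.1% in control and 68.3% in cKO, against 98.9% and 99.0% over all long exons. In control 38 of the 48 were over 90%, as were 3449 of all 3904, and 32 of the 48 were over 95%. The differences ran from -16.3 to -68.0 points, with a median of -26.4 points, and 11 exons were under 50% in cKO. The 48 exons came from 46 genes, because Bag3 and Ptpn13 each had a pair. Their median length was 599 nt.

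The length border itself marked no step. Exons of 301 to 310 nt numbered 237, of which 3 were called lower and 1 higher, and those of over 290 up to 300 nt numbered 294, of which 6 were called lower and 0 higher. Both groups had a median control inclusion near 99% (99.1% just over and 98.9% just under the border).

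The exon with the largest minimum change belonged to Aak1, the kinase that phosphorylates the clathrin adaptor AP2. This exon of 314 nt, on chromosome 6 from 86906253 to 86906566 (mm9), was included at 98.7% in control and 33.5% in cKO, with a minimum change of 55 points. Transcripts that skip it thus went from 1.34% to 66.5%. A far longer Aak1 event of 7861 nt was at 21.1% and 3.42%, a difference of -17.7 points with a minimum change of 2 points, and was not called. Among the long exons of Gak, the related kinase of the same pathway, one of 480 nt was at 99.4% and 99.6%.

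Zinc finger factors that bind GC-rich promoter elements ranked second (Sp4) and sixth (Klf12) by minimum change. The 1521-nt exon of Sp4 (chromosome 12, 119537111 to 119538631, mm9) was at 89.6% in control and 21.6% in cKO, with a minimum change of 52 points. The 547-nt exon of Klf12, a Krüppel-like repressor (chromosome 14, 100421841 to 100422387, mm9), was at 96.9% and 38.0%, with a minimum change of 40 points. In both genes the form without the exon was the minor one in control and the major one in cKO. Sp2, another Sp factor, had long exons of 313 and 972 nt that were at 99.5% in control, and at 98.2% and 98.3% in cKO, neither called.

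Zfp865, a gene of the C2H2 zinc finger type, had a 1147-nt exon (chromosome 7, 4980593 to 4981739, mm9) that was at 87.0% in control and 20.996% in cKO, with a minimum change of 49 points. Trmt5, which methylates the guanosine beside the anticodon of some tRNAs, had a 652-nt exon (chromosome 12, 74381992 to 74382643, mm9) at 92.2% and 38.7%, with a minimum change of 48 points. These are 2 more genes in which most cKO transcripts lacked a long exon that most control transcripts held. Vamp1, a vesicle SNARE of nerve terminals, had the longest exon called, 11305 nt, at 95.7% in control and 33.1% in cKO, with a minimum change of 44 points. No annotated exon was matched to it.

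Bag3, a co-chaperone that sits at the Z-disc and helps clear damaged sarcomere proteins, was called in both of its internal exons. Exon 2 of 4, 339 nt long (chromosome 7, 135683487 to 135683825, mm9), was at 99.2% in control and 58.5% in cKO, with a minimum change of 38 points. Exon 3, 402 nt long (135685321 to 135685722), was at 99.4% and 62.7%, with a minimum change of 34 points. The differences of these neighbouring exons were close in size, -40.7 and -36.7 points. Both have lengths divisible by 3, and they hold 19.6% and 23.2% of the coding sequence.

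The next exons by minimum change were in genes of the cytoskeleton, of coenzyme A synthesis and of transcription. Slain2, which promotes microtubule growth, had a 316-nt exon at 99.4% in control and 63.9% in cKO. Coasy, which carries out the final steps of coenzyme A synthesis, had a 708-nt exon at 88.6% and 49.8%. Scaf4, an SR-related factor that acts at the tail of RNA polymerase II in human cells, had a 381-nt exon at 99.5% and 63.1%. The minimum changes of these exons were 32, 29 and 29 points. The 1032-nt exon of Qrich1, a glutamine-rich transcription regulator, was at 97.2% and 66.3%, with a minimum change of 27 points.

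**Figure D2:**
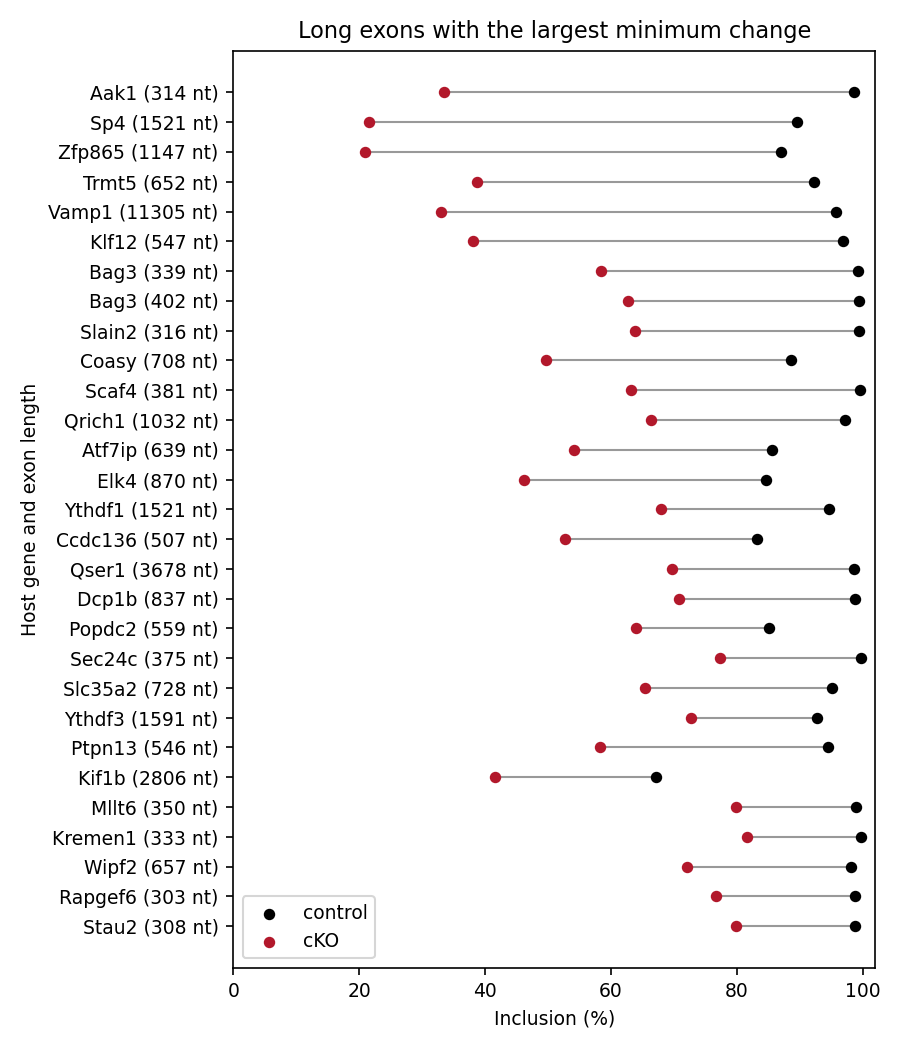
Inclusion (%) in control (black) and cKO hearts (red) of 29 of the 30 long exons with the largest minimum change, ordered from the top, with 1 value per group and the host gene and length of each exon. All points for cKO lie left of those for control, from 20.996% in Zfp865 to 81.5% in Kremen1.

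Several of the other exons called lower lay in regulators of transcription and of mRNA fate. Atf7ip, a partner of the histone methyltransferase SETDB1, had a 639-nt exon at 85.6% in control and 54.1% in cKO. The 870-nt exon of Elk4, an ETS factor that works with SRF, was at 84.6% and 46.1%. Ythdf1 and Ythdf3 read methylated adenosines in mRNA, and both were called: a 1521-nt exon of Ythdf1 was at 94.6% and 67.9%, and a 1591-nt exon of Ythdf3 at 92.8% and 72.8%. The Ythdf1 exon holds 86.5% of the coding sequence, the largest share among the matched exons called lower. The 837-nt exon of Dcp1b, an activator of mRNA decapping, was at 98.8% and 70.9%, while the 759-nt exon of its paralog Dcp1a was at 98.6% and 98.8%.

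Genes of muscle membranes and transport were also among them. Popdc2, a cAMP-binding Popeye protein of heart muscle, had a 559-nt exon at 85.1% in control and 64.0% in cKO. The 2806-nt exon of Kif1b, a kinesin that carries organelles along microtubules, was at 67.1% and 41.5%. The Kif1b exon was thus alternative already in control hearts, unlike most of the set. Sec24c, a cargo adaptor of COPII vesicles, had a 375-nt exon at 99.7% and 77.4%, and Slc35a2, the Golgi carrier of UDP-galactose, a 728-nt exon at 95.1% and 65.3%.

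Other exons of the first 30 were in Ccdc136 (507 nt, 83.2% in control and 52.6% in cKO), Qser1 (3678 nt, 98.6% and 69.7%) and Ptpn13, a tyrosine phosphatase (546 nt, 94.4% and 58.3%). They were also in Mllt6 (350 nt, 98.9% and 79.9%), the Wnt antagonist receptor Kremen1 (333 nt, 99.8% and 81.5%) and the actin regulator Wipf2 (657 nt, 98.1% and 72.1%). Rapgef6, an exchange factor of Rap GTPases (303 nt, 98.8% and 76.7%), and Stau2, which binds double-stranded RNA (308 nt, 98.8% and 79.8%), were among them too. All 30 were lower in cKO, with minimum changes down to 14 points.

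Beyond those, 20 long exons were called, 18 of them lower, with differences of 16.3 to 39.1 points in size. In these 18, inclusion ran from 67.4% to 99.7% in control and from 28.3% to 83.1% in cKO. They included exons of Klhl28, Nfatc3, Tcfe3 (now Tfe3), Zfp414, Lime1, 2810046L04Rik (Proser1), 1810031K17Rik (Cnppd1), L3mbtl3, Bcs1l, Smarcal1, Nup153, Palb2, Setdb2, Ptpn13, Atp2b4, Slc7a6 and Trip12. The second Ptpn13 exon, 415 nt long, was at 67.4% in control and 28.3% in cKO. Nfatc3, a calcineurin-responsive factor, was at 98.8% and 76.5% in its 1138-nt exon 2. The second exons of Nfatc1 (1102 nt), Nfatc2 (1036 nt) and Nfatc4 (1096 nt) were at 99.0%, 99.1% and 99.2% in control and at 99.3%, 98.9% and 99.4% in cKO.

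Only 2 long exons were called higher in cKO. A 305-nt exon of Pdlim7, which links Z-disc actin to kinases, was at 51.5% in control and 68.5% in cKO, with a minimum change of 12 points. A 1274-nt exon of Kcnn2, a small-conductance calcium-activated potassium channel, was at 74.5% and 98.3%, with a minimum change of 11 points. A second Kcnn2 exon of 419 nt was at 81.5% and 94.5% and was not called, with a minimum change of 3 points. Both called exons were well short of full inclusion in control, where a rise of 10 points is possible.

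Just short of the call, 53 long exons had a minimum change of 5 to 9 points, 44 of them lower in cKO and 9 higher. With the called exons included, 2.36% of long and 0.447% of shorter exons were lower by a minimum change of at least 5 points. The shares that were higher were alike, 0.282% and 0.289%. The 44 had a median of 98.9% in control and 86.1% in cKO, and 36 were over 90% in control. Crebbp, the histone acetyltransferase CBP, was at 97.9% and 77.4% in a 414-nt exon with a minimum change of 9 points. Smarca2, a chromatin remodelling ATPase (462 nt, 99.1% and 84.1%), and Cacna1c, the pore subunit of the cardiac L-type calcium channel (353 nt, 99.9% and 89.6%), were also among them. Of the 9 with a higher value, Sox17, an endothelial transcription factor, was at 76.3% and 97.9% in an 807-nt exon.

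Lower calls were more frequent in longer bands. Of exons up to 100 nt, 0.126% were called lower, of those over 100 to 200 nt 0.148%, and of those over 200 to 300 nt 0.603%. Among long exons the counts were 18 of 1985 for over 300 to 500 nt (0.907%), 20 of 1319 for over 500 to 1000 nt (1.52%), 7 of 437 for over 1000 to 2000 nt (1.60%) and 3 of 163 beyond 2000 nt (1.84%). The higher calls went the other way at the short end, from 0.134% up to 100 nt to 0.0335% over 200 to 300 nt, and the 2 long exons called higher lay in the bands over 300 to 500 nt and over 1000 to 2000 nt. The highest band rests on 3 calls, in Vamp1, Qser1 and Kif1b, and of these only the Qser1 exon was matched to an annotated exon.

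For falls, the same order held without the demand on the minimum change. Among exons over 90% included in control, those lower by at least 10 points in cKO made up 0.442% up to 100 nt, 0.449% over 100 to 200 nt and 1.20% over 200 to 300 nt. The shares were 1.97%, 2.90%, 3.32% and 6.38% in the 4 long bands, from 35 of 1780, 33 of 1137, 13 of 391 and 9 of 141 exons. The median difference stayed near 0 in each of these bands, between 0.09 and 0.12 points, so the shift lay in the tail and not in the bulk of long exons. No exon over 90% in control can rise by 10 points, so these shares count falls only. Over all inclusion levels, rises of at least 10 points made up 1.30%, 0.698% and 0.703% of the short bands. In the 4 long bands rises made up 0.806%, 1.59%, 1.14% and 2.45%, and falls 2.42%, 3.79%, 4.35% and 7.36%. Large differences in both directions were thus more frequent beyond 500 nt than over 100 to 500 nt.

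**Figure D3:**
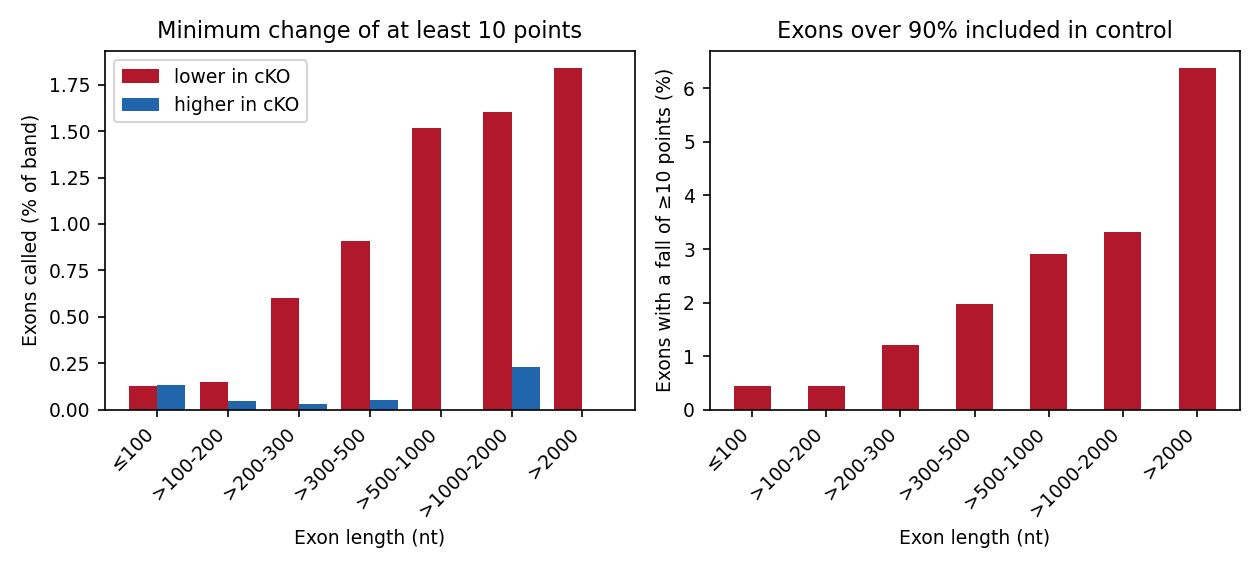
Exons by length band (nt): the left panel gives the percentage of each band called lower (red) or higher (blue) in cKO, and the right panel the percentage of exons over 90% included in control that were lower by at least 10 points. Both red series stand higher in longer bands, up to 1.84% and 6.38% beyond 2000 nt, where they rest on 3 and 9 exons.

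Most of the 10 longest exons differed little between the groups. The longest of all, 17106 nt of Ttn, which encodes the sarcomere spring titin, was at 97.4% in control and 97.1% in cKO. Those of Cmya5 (9310 nt), Mtap1a (8104 nt), Mki67 (6836 nt), Ankrd11 (6518 nt), Hivep1 (5939 nt) and Naca (5916 nt) were between 92.8% and 99.9% in control and between 91.0% and 99.9% in cKO, with minimum changes of 0 points. Of the 10 longest, the Vamp1 exon alone was called. The Coro7 event of 6101 nt was at 3.08% and 1.86%. The Aak1 event of 7861 nt was at 21.1% and 3.42%, with a minimum change of 2 points.

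By inclusion level, taken as the mean of the groups, 3408 long exons (87.3%) were over 90%, 272 (6.97%) between 10 and 90% and 224 (5.74%) under 10%. Of the intermediate ones, 44 were called lower (16.2%) and 2 higher (0.735%). Over 90%, 4 were called lower (0.117%). Under 10%, where the median was 2.20% in control and 1.96% in cKO, none was called in either direction. Among 4536 intermediate exons of 300 nt or shorter, 162 were called lower (3.57%) and 80 higher (1.76%). This level uses the cKO value, so an exon near full inclusion in control enters the intermediate group by falling.

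The median difference of the 272 intermediate long exons was -4.30 points, with quartiles of -13.9 and 4.64 points, against 0.361 points for the short ones. Of these long exons, 93 were lower by at least 10 points and 35 higher. By band the median was -4.44, -2.97, -5.67 and -5.98 points from the shortest long band to the longest, which holds 17 exons, and 1.06, 0.144 and -2.65 points in the 3 short bands. This median depends on how intermediate is defined: with exons at 10 to 90% in control alone, which leaves out those that fell from near 100%, it was 0.895 points. The 38 calls from control levels over 90% are then counted among the included exons, and 10 lower calls stay among the intermediate ones, beside the 2 higher calls in Pdlim7 and Kcnn2.

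**Figure D4:**
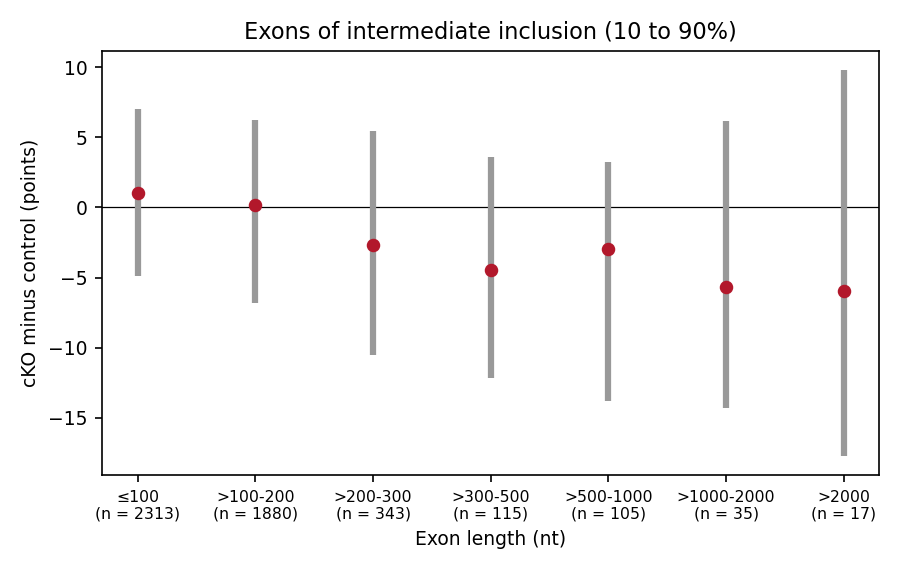
Median difference in inclusion (points, cKO minus control; red) and quartiles (grey bars) of exons at 10 to 90% on the mean of the groups, by length band (nt), with the number of exons. The medians lie above 0 up to 200 nt and below 0 in the 5 longer bands, down to -5.98 points, and every quartile bar crosses 0.

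Host genes were also grouped by fixed lists of symbols, which do not hold every gene of a kind, so a called exon of a gene outside a list is not in its count. The 69 long exons of titin and Z-disc genes, in 16 genes, had 3 called lower (the Bag3 pair among them) and 1 higher (Pdlim7), 4.35% and 1.45%, against 1.23% and 0.0512% over all long exons. Ttn alone had 43 long exons, of which 42 were over 90%, none was called, and the differences ran from -12.9 to 2.57 points. Its lowest difference came from a 2646-nt exon at 99.2% in control and 86.3% in cKO, with a minimum change of 7 points. The 10 long exons of myosin, actin and troponin genes had medians of 99.9% in both groups and no call.

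The listed ion channel and calcium handling genes had 33 long exons and no call, and the listed spectrin, ankyrin and plakin scaffold genes 35 and no call. Over all long exons 1.23% were called lower, so lists of this size can hold no call at that share. The called exons of the channel gene Kcnn2 and the calcium pump gene Atp2b4 lie outside the first list. Kcnj5, a subunit of the acetylcholine-activated potassium channel, was at 41.7% and 29.4% in a 303-nt exon with a minimum change of 4 points. The plakin Plec was at 89.2% and 83.2% in a 3381-nt exon with a minimum change of 1 point. Listed extracellular matrix and adhesion genes had 50 long exons, 10 of them in the collagen gene Col6a3, with no call, and listed mitochondrial genes 17 with none. Bcs1l, an assembly factor of respiratory complex III, is not on the mitochondrial list, and its 393-nt exon was called lower at 97.8% in control and 78.9% in cKO.

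Sp and Klf factors had 2 called lower of 11 long exons (18.2%, Sp4 and Klf12), and a list of other transcription factors 1 of 40 (2.5%, Nfatc3). Over all long exons the share was 1.23%, at which lists of 40 to 136 exons hold few calls or none. Elk4 and Tcfe3, both called lower, are transcription factors outside that list. Listed chromatin and coactivator genes had none called of 136, although 6 exons of them, Crebbp and Smarca2 included, had a minimum change of at least 5 points. Called exons of chromatin genes outside the list were those of Setdb2 (97.7% and 74.0%), L3mbtl3 (99.0% and 79.4%), Mllt6 and Atf7ip. Zinc finger genes, taken by symbol, had 2 of 109 (1.83%, Zfp865 and Zfp414). In Zfp414 a 335-nt exon was at 99.4% in control and 80.5% in cKO.

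Among genes that act on RNA, the listed SR proteins and their relatives had 5 long exons and the listed hnRNPs and tissue splicing regulators 10, with no call, and Scaf4 is on neither list. Tra2a, an SR-related splicing activator, was at 15.0% and 17.7% in a 301-nt exon. Genes of mRNA decay and translation control had 2 called lower of 45, Dcp1b and Ythdf1, with Ythdf3 outside the list. The DNA repair and cell cycle genes had 1 of 55, in Palb2, the partner of BRCA2 (671 nt, 94.3% and 59.5%). Clathrin and endocytosis genes had 1 of 17, in Aak1, and GTPase regulators 1 of 59, in Rapgef6. The 3203 long exons in no listed class had 35 called lower (1.09%) and 1 higher (0.0312%). Over all long exons 1.23% were called lower, so counts this small in single lists do not set a class apart.

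Of 17 genes with 5 or more long exons, Ptpn13 alone had a call, in 2 of its 5. In the 46 genes with a long exon called lower, 70 long exons were measured in all, and the 22 that were not called sat beside the 48 that were. The 522 shorter exons of these genes held 5 lower calls (0.958%) and no higher call, against 47 of 32351 (0.145%) lower in the other genes with long exons. These 5 were 3 exons of Ccdc136 and 1 each of Kremen1 and Ptpn13. The 95-nt exon of Ptpn13, at 76.1% in control and 38.0% in cKO, lies from 103970541 to 103970635 on chromosome 5, close to the called 415-nt exon from 103969991 to 103970405 (mm9).

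Retention of introns in the same genes was lower in 5 of 477 events (1.05%) and higher in none, against 0.0924% lower and 0.0417% higher over all introns. The introns were in Elk4, Kif1b (2) and Zfp865 (2). The intron of Zfp865 from 4972258 to 4980592 ends at the base before the called exon and was retained at 47.0% in control and 21.8% in cKO. In Elk4 an intron of 6442 nt was at 42.0% and 9.72%. No alternative 3′ or 5′ splice site of the 46 genes was called, of 158 and 136 events, where all such events gave 0.275% and 0.284% in either direction.

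Exons with lengths divisible by 3 and other exons were called lower at similar rates. Length alone was used for this split, and it bears on the reading frame only in coding exons. Coding status was not known for unmatched exons such as that of Sp4. Long exons with lengths divisible by 3 were 39.4% of the set, and 21 of these 1537 were called lower (1.37%), against 27 of the 2367 others (1.14%). Among the 48 exons called lower, 43.8% were divisible by 3, the Sp4, Bag3, Scaf4 and Qrich1 exons included. The Aak1, Trmt5, Klf12 and Slain2 exons were not, so transcripts that skip them have a shifted frame behind the exon.

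By gene and length, 3477 long exons (89.1%) matched an annotated exon of GENCODE M21. Of these, 2703 (77.7%) were coding throughout, 710 in part, 33 untranslated and 31 in noncoding transcripts. The 42 matched exons called lower comprised 34 coding throughout, 7 coding in part and 1 in an untranslated region, that of Cnppd1. The median share of the gene's coding sequence was 23.2% for those called lower and 20.5% for all matched long exons. Among exons called lower, Qser1 (68.6%), Elk4 (67.4%) and Slc35a2 (61.7%) followed Ythdf1 at the upper end, and Setdb2 held 0.748%. The next-to-last position of the transcript was taken by 9 of the 42 (21.4%) and by 12.6% of all matched long exons, and the second or the third by 15 (35.7%) and 38.2%.

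The sequences of exons coding throughout were described over the first 100 bases and over the whole exon. CATC, searched on the transcribed strand only, occurred in the first 100 bases of 17 of 34 exons called lower (50%) and of 1029 of 2550 uncalled exons over 90% in control (40.4%). Over all 2703 long exons the share was 40.5%, and over exons of 100 to 300 nt also 40.5%. Of the exons of 100 to 300 nt called lower, 54 of 93 (58.1%) held it. In the windows printed above, CATC is present in Aak1, Bag3 and Qrich1, and no match lies in the windows of Trmt5, Klf12, Slain2 and Scaf4. Over their whole length Klf12 holds 10, Trmt5 3, and Slain2 and Scaf4 1 each.

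Cytosine made up a median of 31.6% of the exons called lower, with quartiles of 26.9% and 37.5%, against 27.9% (24.0% and 31.7%) in uncalled exons over 90% in control. In Aak1 it was 42.0%, in exon 2 of Bag3 37.8%, and in Trmt5 24.2%. Exons of 100 to 300 nt had a median of 25%, and those of them called lower 32.2%. The C-rich composition of the exons called lower was thus shared by long and shorter exons. These are descriptions of sets that overlap in range, with no test.

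Host genes of the exons called lower were more often higher in cKO than genes at large, and about as rarely lower. Of the 46, in the authors' deposited table, 10 were higher in cKO and 1 lower at an adjusted p under 0.05, 23.9%. This compares with 7.09% of all genes tested (3.78% higher and 3.31% lower) and 8.51% of genes with any exon event. Of 2854 genes with a long exon it was 8.97% (147 higher and 109 lower). Their median log2 fold change was 0.13, against 0.01 for all genes with a long exon. The authors' deposited table gave a log2 fold change of 0.97 ± 0.18 (SE) for Trmt5 (adjusted p = 1.82e-05), of 0.70 ± 0.12 for Coasy (adjusted p = 3.78e-07) and of 0.58 ± 0.12 for Sp4 (adjusted p = 0.000204). The one lower gene there was the calcium pump Atp2b4, at -0.57 ± 0.17 in the authors' deposited table (adjusted p = 0.0200), whose 661-nt exon was at 95.8% and 65.3%.

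Large falls in inclusion were also found in host genes without a call in the gene table, which does not show that their total RNA was unchanged. For Aak1, Zfp865, Klf12 and Bag3 the authors' deposited table gave log2 fold changes of 0.14 ± 0.12, 0.27 ± 0.12, -0.05 ± 0.20 and 0.02 ± 0.09 (SE), with adjusted p of 0.560, 0.162, 0.936 and 0.933. The Pdlim7 gene, whose exon was called higher, was at 0.60 ± 0.11 in the authors' deposited table (adjusted p = 1.69e-05). With host genes split by abundance into 3 equal groups, 1.12%, 1.47% and 1.16% of long exons were called lower from the lowest to the highest, against 0.207%, 0.141% and 0.174% of shorter ones, so the excess of lower calls was present at each level of abundance.

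**Figure D5:**
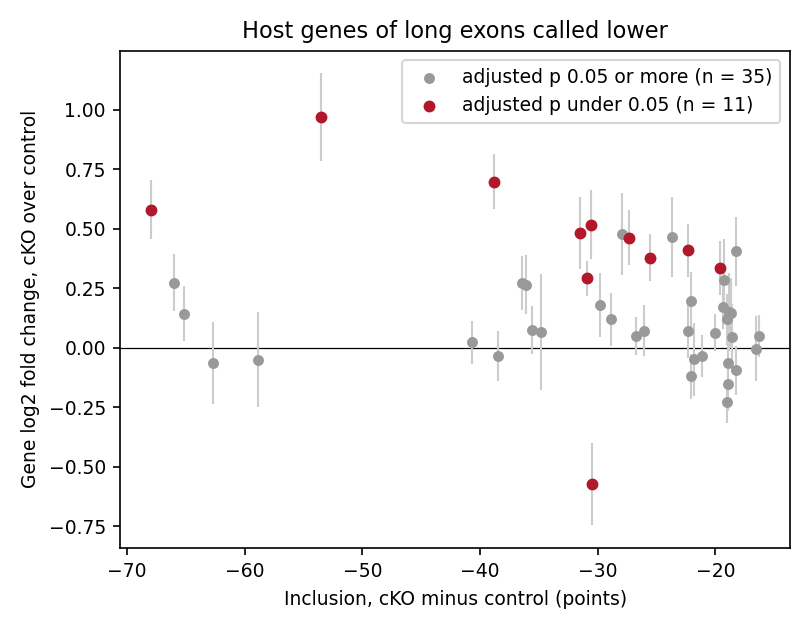
Difference in inclusion of the exons called lower (points, cKO minus control; horizontal axis) and the log2 fold change of the host gene from the authors' deposited table (vertical axis, bars 1 SE), for 46 genes, each with its called exon of largest minimum change. Of the 11 genes with an adjusted p under 0.05 (red), 10 lie above 0 and Atp2b4 lies below.

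The cell makeup and the deletion were checked in the gene table. All 10 cardiomyocyte markers were abundant in the authors' deposited table, 6 of them lower in cKO with a median log2 fold change of -0.36, and 7 of 10 macrophage markers were higher with a median of 0.55. Of the fibroblast (7), endothelial (6), mural (5) and epicardial (6) markers, 0, 1, 1 and 1 were higher and none lower. Their median log2 fold changes in the authors' deposited table were 0.09, -0.06, -0.06 and 0.71. All 6 epicardial markers had positive values, the largest median shift of the cell types checked. In whole hearts fewer cells of a type and less RNA per cell cannot be told apart, and the part of these shifts in the inclusion levels was not tested. Srsf3 itself had a log2 fold change of 0.02 ± 0.07 (SE) in the authors' deposited table (adjusted p = 0.935, mean 12870 normalised counts). Only 2 events of Srsf3 were measured, both 3′ splice sites, so total RNA and these events do not show the removal of the floxed part.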

How the data were processed

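Stranded libraries were made from polyadenylated heart RNA of both groups (n = 3 each), per the labels' protocols. Per the file headers, the authors deposited vast-tools inclusion levels as a fraction per group (mm9 coordinates), printed here as percentages, with their difference and the minimum change at a probability of 0.95. The difference was turned to cKO minus control. The authors also deposited a gene table with the mean normalized signal, the log2 fold change, its Wald score, the p-value and the adjusted p, made with kallisto 0.46.0 and DESeq2 1.24.0 per the submitters' processing notes. Positive fold changes were read as higher in cKO, from an indirect check without read depth. Its measure was the shortfall from full inclusion in exons over 97% in both groups. For genes with at least 3 such exons, the median log2 ratio of control to cKO shortfall was taken. These medians were centred on the median gene and served as a stand-in for relative depth. In 634 of 670 genes (94.6%) that passed, the sign of this stand-in equalled that of the fold change. Sources used here do not state the vast-tools version or read filters. Depth per sample is unknown, no values per library were used, and the planned model of reads per library was replaced by the authors' minimum change, counted without a test.

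Long exons were counted and summarised by length, level on the mean of the groups, frame and host gene class (by symbol) with pandas 2.3.3 in Python 3.11.15; the counting was tested on simulated events. Exons were matched to GENCODE M21 (GRCm38) by gene, chromosome and unique length; no coordinate was converted. Symbols matched directly for 3518 long exons, through older symbols for 342, and not for 44. Named were the 30 largest minimum changes, up to 3 intermediate exons per class, 2 per band, the 10 longest and Srsf3; related genes, other called exons, exons just short of the call and genes with 5 or more long exons were added after their values were seen. The exons, classes and lists were chosen with earlier results of these data known. A few exons that these rules name, and 1 sequence, are not reported here.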

Additional observations from a re-analysis of the deposited data

How the results depend on the processing

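The count of 48 long exons called lower became 92 at a minimum change of 5 points, 16 at 20 points and 129 with an estimated difference of at least 10 points, and stayed between 33 and 65 under 8 other alternatives (other length borders, 1 event per gene, no overlapping events, no host gene called in the gene table, no zinc finger genes, and, chosen after seeing the data, matched exons only and control over 90% only). The 2 called higher became 11, 0 and 46 at the same 3 thresholds, 4 over 250 nt, 1 over 400 nt, 1 without host genes called in the gene table, 1 among matched exons and 0 with control over 90%. At 5 points 2.36% of long and 0.447% of shorter exons were lower, at 20 points 0.410% and 0.0347%, so the excess was present at each threshold. By band, 5 points gave 33, 36, 15 and 8 lower calls. With the level taken from control alone, lower calls were 10 for intermediate exons and 38 over 90%, with borders at 5 and 95% none was over 95%, and the median difference of intermediate exons turned from -4.30 to 0.895 points; it was -3.98 with 1 event per gene. Of 32 alternative values for single classes, 28 stayed within 1.5 times and 4 rose. Host genes higher in cKO were 9 in place of 10 when the adjustment took in every gene with a p-value.

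No paired analysis was possible because the inclusion levels hold 1 value per group, and for the same reason no fit without a heart was run. The depth behind an event is unknown and limits which differences reach the minimum change.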
